A study of Mus musculus with 56 samples.

Results

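The cytosolic ribosome is built from ribosomal RNA and a set of proteins whose genes carry the prefix Rps in the small subunit and Rpl or Rplp in the large subunit. The messenger RNAs of these proteins begin with a pyrimidine tract, known as the 5′ TOP, through which mTORC1 and the RNA-binding protein LARP1 control their translation and stability as a group. In neurons the same mRNAs are found in processes as well as in cell bodies, and some of the proteins also act outside the ribosome, for example in the surveillance of p53 by Rpl5 and Rpl11. Members were taken by name: the annotated symbol had to be Rpl, Rps or Rplp, a number and at most a letter a, l, x or y with a digit, which leaves out mitochondrial ribosomal proteins, ribosomal protein kinases and pseudogenes. The array carried 62 such symbols on 79 probes, and 55 genes (22 of the small subunit and 33 of the large subunit) passed the detection filter out of 9893 genes tested in all. Where a gene had several detected probes, the one with the highest mean signal stood for it.

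Messenger RNA of the whole hippocampus was measured on Illumina MouseRef-8 v2 bead arrays, 1 array for each of 56 male NMRI mice over 12 weeks old. A group of 15 mice received PLX3397 at 30 mg/kg and 18 mice received it at 3 mg/kg, each by daily gavage, after a single injection of pilocarpine at 300 mg/kg had caused status epilepticus that was ended with diazepam. A further 17 mice with the same history received vehicle (epileptic vehicle), and 6 mice without pilocarpine received vehicle (naive). PLX3397 is an oral inhibitor of the kinase Csf1R, on which microglia depend, and also inhibits c-Kit. The sample labels give 7 days of treatment, whereas the study design gives 2 weeks, and NMRI is an outbred stock. Array quality was even: 44.3 to 49.8% of probes were detected on each array, and the mean correlation of an array with the others was lowest for epileptic vehicle replicate 6 and PLX3397 3 mg/kg replicate 18. The counts of calls, of separated genes, of mice and of gene lists were repeated without each of them, and are given where they moved by more than 1.5 times. The hippocampal markers Slc17a7, Nrgn, Wfs1 and Fibcd1 of pyramidal neurons and Prox1 and C1ql2 of granule neurons were all detected. Microglial markers (Cx3cr1, Tmem119, C1qa, Tyrobp and Trem2), whose summed signal ran from 1226 to 2135 at 30 mg/kg, from 1703 to 2566 at 3 mg/kg, from 2045 to 4101 in epileptic vehicle mice and from 1354 to 1697 in naive mice, also differed between groups. The summed pyramidal markers ran from 7827 to 13365 at 30 mg/kg, 9907 to 13686 with the lower dose, 8219 to 9614 in epileptic vehicle mice and 13834 to 15914 in naive mice. Of 11 marker lists, 4 had summed signals that did not overlap between epileptic vehicle and naive mice. Besides the microglial and pyramidal lists, these were granule neuron markers, higher in epileptic vehicle mice (2732 to 6142, against 1555 to 1990 in naive mice), and interneuron markers, lower in them (6824 to 9147, against 10437 to 12522 in naive mice). Of 2 measured granule markers 1 was called higher, and of 4 measured interneuron markers 3 were called lower. The sum of 5 astrocyte markers overlapped, but Gfap among them was higher in epileptic vehicle mice by 2.31 on the log2 scale. The part of these cell types in the results below was not tested, and in bulk tissue fewer cells of a type and less RNA per cell cannot be told apart.

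The pyrimidine tract was looked for in RefSeq promoter sequences (GRCm38.p6, 250 bases before to 50 bases after the annotated start), which held 47 of the 55 genes. The core CTTTC was searched on the forward strand, which reads like the mRNA, within 50 bases of the annotated start. It was held by 21 of the 47 genes (44.7%), against 9.27% of 7961 other genes tested and 12.8% of all 32851 promoters in the table. By subunit it was held by 15 of 27 large-subunit genes (55.6%) and 6 of 20 small-subunit genes (30%). The ETS-type motif CCGGAAG, searched on both strands over the 300 bases and counted apart from CTTTC, was found in 17 of the 47 (36.2%), against 16.2% of the other genes tested and 8.86% of all promoters. The following windows are shown because they come from genes with large, intermediate, small and opposite changes, with CTTTC in capitals.
Rpl13a (chr7:45128720-45128748, minus strand): caagacctcctcCTTTCccaggcggctgc
Rpl12 (chr2:32961710-32961738, plus strand): ccgtcttttcggCTTTCggctcggaggag
Rpl7a (chr2:26910794-26910822, plus strand): tccctcttctttCTTTCtccagcagccga
Rpl28 (chr7:4792955-4792983, plus strand): tctcgtgtctctCTTTCcgtctccggccg
Rpl38 (chr11:114668568-114668596, plus strand): ggaagcctcgttCTTTCcccgttctcttc
Rps15a (chr7:118116142-118116170, minus strand): ccggcccactctCTTTCtgccatcttccc
Rps3, Rps27l and Rpl19, which had larger differences than any gene shown, held no CTTTC within these 50 bases. In Rps15a the match began 11 bases before the annotated start, outside the annotated mRNA, and in Rpl7a it began 1 base before the start. Over the 21 genes the match began from 32 bases before the start (Rpl22) to 43 bases after it (Rps19). The 21 are therefore not a count of mRNAs that begin with the tract. In epileptic vehicle against naive mice, the 21 genes with CTTTC had a median log2 difference of 0.57 and the 26 without it 0.55. A match describes letters in a window and no match says only that these letters are not in it.

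The comparison of epileptic vehicle with naive mice asks what chronic epilepsy was accompanied by in the hippocampus. Here 49 of the 55 genes were higher in epileptic vehicle mice, 1 was lower and 5 did not pass the threshold (limma, Benjamini-Hochberg adjusted p under 0.05 over 9893 genes). Over all genes tested, 22.6% were called higher and 26.5% lower. The median log2 difference of the 55 genes was 0.53, or 1.44-fold, against -0.01 over all genes. With arrays scaled to a common median, the whole-table calls were 1291 higher and 3630 lower in place of 2232 and 2619, while 47 ribosomal genes were still called higher and 1 lower. For 30 of the 55 genes every epileptic vehicle mouse lay above every naive mouse, which held for 6.54% of all genes, and for 0 members every epileptic vehicle mouse lay below every naive mouse, which held for 8.6% of all genes. Array numbers given by the submitters fell into a first block, up to 24, and a second, from 33. Within the first block 42 of the 55 genes were wholly above naive mice (10.3% of all genes) and within the second 44 (16% of all genes), with 3 naive mice in each.

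The largest difference belonged to Rps3, a protein at the entry of the mRNA channel of the small subunit. Its log2 signal was 12.26, 12.57 and 12.81 in epileptic vehicle mice and 11.24, 11.55 and 11.66 in naive mice (lowest, median and highest here and below). The groups did not overlap, and the difference was 1.05 ± 0.10 (SE) with an adjusted p of 3.94e-13, or 2.07-fold. Rps27l, a paralog of Rps27 that p53 induces, measured 10.81, 11.12 and 11.54 in epileptic vehicle mice and 10.03, 10.14 and 10.18 in naive mice. It too was separated in every mouse, with a difference of 0.97 ± 0.11 (adjusted p = 4.65e-11). Rpl19, a large-subunit protein that takes part in a bridge to the small subunit, followed at 11.11, 11.52 and 11.79 in epileptic vehicle mice against 10.50, 10.57 and 10.68 in naive mice, a difference of 0.93 ± 0.09. Rpl13a, Rpl34 and Rpl12 had near equal differences of 0.84, 0.84 and 0.83. Rpl13a, which also leaves the ribosome to repress inflammatory transcripts in the GAIT complex of human cells, measured 10.11, 10.46 and 10.75 in epileptic vehicle mice and 9.49, 9.58 and 9.81 in naive mice. Rps9, Rps13 and Rps15 followed with differences of 0.81, 0.80 and 0.76, and Rps9 had the smallest adjusted p of all members, 2.1e-14.

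**Figure D1:**
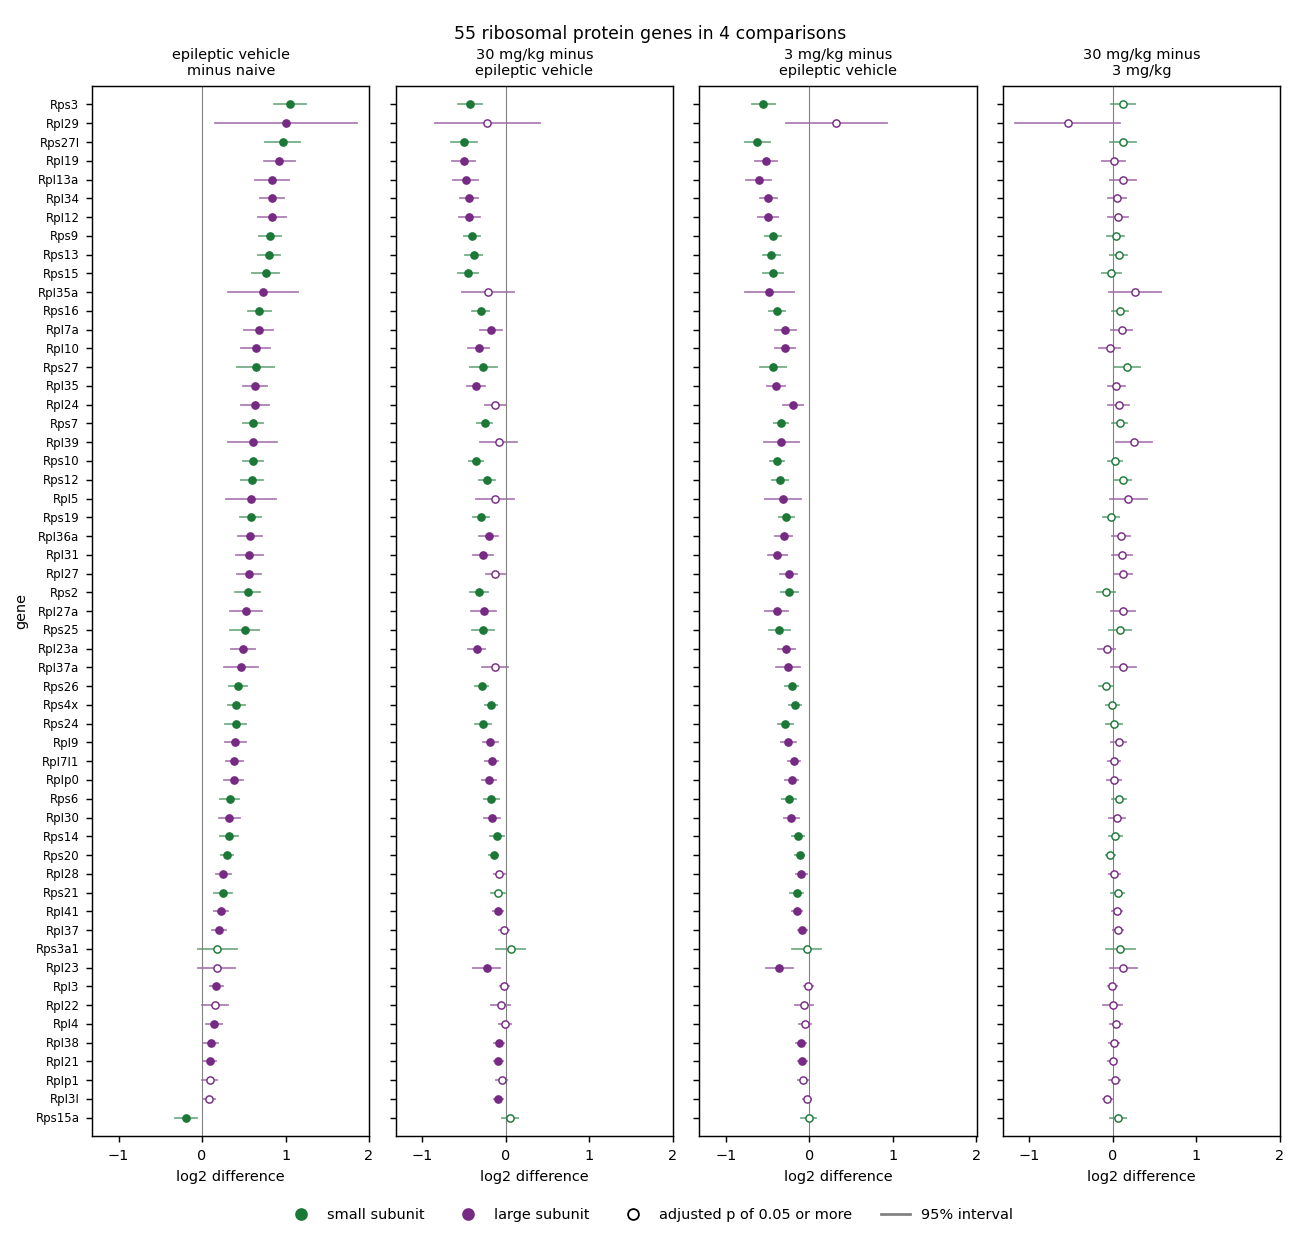
Log2 difference (x axis) of each of 55 ribosomal protein genes (rows) in 4 comparisons, with 95% confidence intervals, small-subunit genes in green and large-subunit genes in purple. Points of the first panel lie right of 0 for all genes but Rps15a, points of the middle panels lie mostly left of 0, and open points did not pass an adjusted p of 0.05.

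Members known for particular roles had the following values. Rps19, the gene most often mutated in human Diamond-Blackfan anaemia, had an epilepsy difference of 0.58. Rps10, at the beak of the small subunit, measured 12.53, 12.75 and 12.94 in epileptic vehicle mice and 11.99, 12.15 and 12.26 in naive mice, with no overlap. Rpl35a, higher by 0.73, measured 10.08, 10.48 and 11.38 in epileptic vehicle mice and 9.20, 9.98 and 10.36 in naive mice. These ranges overlapped over all mice and were apart within each block of array numbers. In the first block they ran from 10.08 to 10.77 in epileptic vehicle mice and from 9.20 to 9.71 in naive mice, and in the second from 10.88 to 11.38 and from 10.25 to 10.36. Rpl5, which with 5S RNA and Rpl11 can hold back Mdm2, was higher by 0.58, at 11.65, 12.01 and 12.56 in epileptic vehicle mice against 10.98, 11.64 and 11.83 in naive mice, and was likewise apart within each block. The X-linked members Rps4x, Rpl10, Rpl36a and Rpl39 were higher by 0.41, 0.64, 0.57 and 0.61. Rps4x measured 12.91, 13.12 and 13.22 in epileptic vehicle mice and 12.60, 12.72 and 12.79 in naive mice, without overlap. Proteins around the exit of the peptide tunnel, where the signal recognition particle docks, included Rpl23a (0.49), Rpl35 (0.64) and Rpl31 (0.56), and in the stalk Rplp0 was higher by 0.38 where Rplp1 was not called. Rpl38, which in mice is required for the translation of Hox mRNAs, and the very short Rpl41 were higher by 0.11 and 0.22.

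Rps15a was the only gene called in the opposite direction. This small-subunit protein measured 9.03, 9.33 and 9.52 in epileptic vehicle mice and 9.36, 9.46 and 9.63 in naive mice. The ranges overlapped, and the difference was -0.19 ± 0.07 (adjusted p = 0.0139). Without naive replicate 5 it was -0.16 with an adjusted p of 0.0591, so the call rested on that mouse. In treated mice Rps15a measured 9.22, 9.32 and 9.54 at 30 mg/kg. At the lower dose it measured 8.91, 9.30 and 9.46, and neither dose was called against epileptic vehicle.

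A further 5 genes were not called in epileptic vehicle against naive mice. Rplp1, an acidic protein of the stalk that recruits elongation factors, measured 14.26, 14.55 and 14.64 in epileptic vehicle mice and 14.35, 14.40 and 14.46 in naive mice, a difference of 0.09 ± 0.05 (adjusted p = 0.0829). Its signal lay near the top of the scale, whose highest gene mean was 14.53. Rpl3l, the paralog of Rpl3 known from heart and skeletal muscle, had the lowest signal of all members at a mean of 7.00 and a difference of 0.08 ± 0.04 (adjusted p = 0.0585). Rpl22 (0.15, adjusted p = 0.094), Rpl23 (0.17, adjusted p = 0.197) and Rps3a1 (0.18, adjusted p = 0.206) had larger differences and wider errors. With arrays scaled to a common median, Rplp1 (0.21, adjusted p = 0.00282) and Rpl23 (0.32, adjusted p = 0.0412) were called higher. Rpl21, Rpl38, Rpl4 and Rpl3 were called with differences of 0.10, 0.11, 0.14 and 0.17. Scaling decided some of these, since with the common median Rpl21 (0.02) was not called and Rpl4 had a difference of -0.05.

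Rpl29 stood apart because its values fell into separate ranges within each group. This large-subunit protein, which also binds heparin at the cell surface, had no value between 9.56 and 10.42 in any mouse. Above that gap were 8 of 15 mice at 30 mg/kg, 13 of 18 at 3 mg/kg, 8 of 17 epileptic vehicle mice and 1 of 6 naive mice. The largest gap in any other member was 0.32, in Rps27l, where 1 mouse lay above it. The difference of Rpl29 between epileptic vehicle and naive mice was 1.01 ± 0.42 (adjusted p = 0.0437), and the call was lost in 12 of 22 alternative analyses. Its dimmer probe, detected on 35 of the 56 arrays, gave 0.48 with an adjusted p of 0.267. The difference comes with a larger share of epileptic vehicle than of naive mice above the gap, and whether the probe meets the same sequence in all of these outbred mice was not tested, so a change in expression cannot be read from it. Rpl29 is counted among the 49 genes, and without it 48 of 54 genes were higher, with a median of 0.52.

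**Figure D2:**
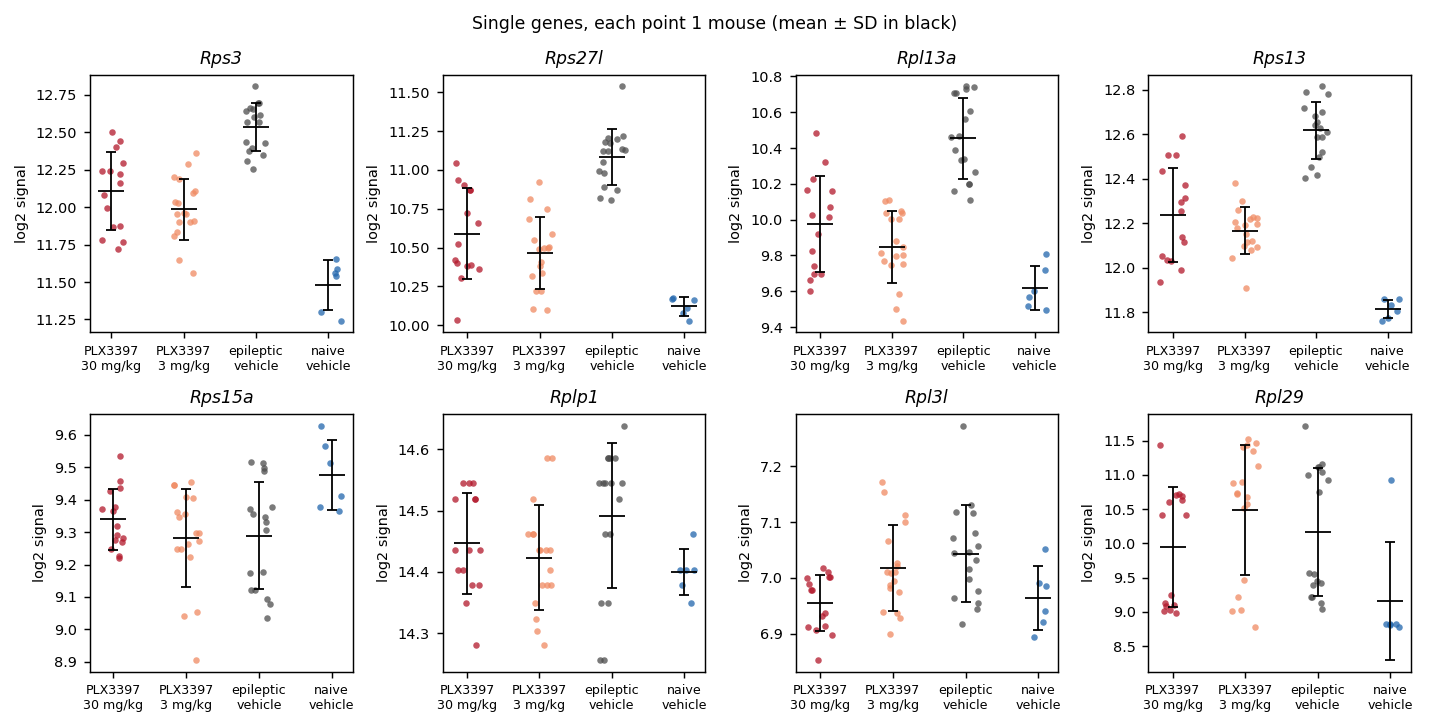
Log2 signal (y axis) of 8 genes in each of 56 mice, by group, with the group mean ± SD in black. Rps3, Rps27l, Rpl13a and Rps13 were highest in epileptic vehicle mice, Rps15a was lower in epileptic vehicle mice than in naive mice, Rplp1 and Rpl3l overlapped between these groups, and Rpl29 had no mouse between 9.56 and 10.42.

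The comparison of each dose with epileptic vehicle asks how the drug changed this pattern. Both comparisons use the same 17 epileptic vehicle mice. At 30 mg/kg, 39 of the 55 genes were lower than in epileptic vehicle mice and 0 were higher at an adjusted p under 0.05 (0 also at an unadjusted p under 0.05). Over all genes, 15.7% were lower and 16.3% higher. At 3 mg/kg, 47 were lower and 0 higher (0 also unadjusted), where 16.9% of all genes were lower and 18.5% higher. With arrays scaled to a common median the whole-table calls were 2023 higher and 818 lower at 30 mg/kg in place of 1614 and 1549, and 2939 higher and 768 lower at 3 mg/kg in place of 1835 and 1676, and 38 and 45 ribosomal genes were called lower. The median log2 difference of the 55 genes was -0.20 at 30 mg/kg and -0.27 with 3 mg/kg. With the blocks of array numbers in the model 46 ribosomal genes were lower at the higher dose and 49 at the lower one, where 1407 and 1755 of all genes were lower. With sets of 8 consecutive numbers in it the counts were 48 and 48, where 1523 and 1608 of all genes were lower.

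In the model without blocks, Rpl19, Rps27l, Rpl13a, Rps15, Rpl34, Rpl12 and Rps3 fell most at 30 mg/kg, and Rps27l, Rpl13a, Rps3, Rpl19, Rpl12, Rpl34 and Rpl35a at 3 mg/kg. Within the first block Rpl35a had a mean of 9.63 at 30 mg/kg (2 mice) and 10.37 in epileptic vehicle mice. Within the second block these means were 10.53 and 11.10, so its place in the ranking at 30 mg/kg was not fixed. Rps27l measured 10.03, 10.52 and 11.04 at 30 mg/kg and 10.10, 10.49 and 10.92 at 3 mg/kg, against 10.81, 11.12 and 11.54 in epileptic vehicle mice. Its difference was -0.50 ± 0.08 at 30 mg/kg (adjusted p = 2.09e-06) and -0.62 ± 0.07 at 3 mg/kg (adjusted p = 6.16e-09). Rpl13a measured 9.60, 10.01 and 10.48 at 30 mg/kg and 9.44, 9.83 and 10.11 at 3 mg/kg, with differences of -0.48 and -0.61. At 3 mg/kg the highest Rpl13a value of 10.11 lay just below the lowest epileptic vehicle value, and Rps13 (highest 12.38 at 3 mg/kg, lowest 12.40 in epileptic vehicle mice) was the other member with no overlap. Over all genes, 0.0505% lay wholly below and 0.0606% wholly above epileptic vehicle at 3 mg/kg. With 30 mg/kg 0 members were separated in this way, where 0.0404% of all genes lay wholly below and 0.0404% wholly above. Without epileptic vehicle replicate 6 the counts were 1 member at the higher dose (0.0809% of all genes) and 4 at the lower one (0.142% of all genes). Rps3 fell to 11.72, 12.16 and 12.50 at 30 mg/kg and to 11.56, 11.96 and 12.36 at 3 mg/kg, a difference of -0.43 ± 0.07 and of -0.55 ± 0.07. A dimmer Rps3 probe, detected on all 56 arrays, gave -0.19 at 30 mg/kg, which was not called (limma adjusted p = 0.257 over probes). At 3 mg/kg that probe gave -0.46 (adjusted p = 0.00248 over probes). Rpl19 differed by -0.50 and -0.52, Rpl34 by -0.44 and -0.49, and Rpl12 by -0.43 and -0.49 at 30 and 3 mg/kg. Rps15, a late-assembling protein of the head of the small subunit, differed by -0.45 with the higher dose and -0.43 with the lower one.

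For most members the mean of each treated group lay between those of the other groups. This describes group values and not single mice, and treated mice were not tested against naive mice. Relative to naive mice, the median difference over the 55 genes was 0.25 at 30 mg/kg, 0.22 at 3 mg/kg and 0.53 in epileptic vehicle mice. The group mean lay between that of epileptic vehicle and naive mice for 52 of the 55 genes at each dose. This held for 59.9% of all genes at 30 mg/kg and 64.4% with 3 mg/kg, and for 89% and 88.9% of the other genes called higher in epilepsy. All of these comparisons share the epileptic vehicle mice, so a gene that is high in these mice alone also counts as lying between, and nothing particular to the ribosomal genes is read from the count. Rps6, the substrate of S6 kinases that gives the usual readout of mTORC1 activity at the protein level, had a signal of 11.97, 12.20 and 12.47 at 30 mg/kg, 11.99, 12.14 and 12.37 with 3 mg/kg, 12.06, 12.41 and 12.53 in epileptic vehicle mice and 11.94, 12.04 and 12.18 in naive mice. Its differences were -0.17 at 30 mg/kg, -0.24 at 3 mg/kg and 0.33 for epilepsy, all past the threshold.

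Some genes did not follow. Rpl3, which reaches close to the peptidyl transferase centre, was higher in epileptic vehicle mice by 0.17 (adjusted p = 0.000143), and treated mice differed from them by -0.02 at 30 mg/kg and by -0.01 with the lower dose, with 95% intervals of -0.07 to 0.04 in both cases. This depended on scaling: with arrays scaled to a common median Rpl3 was called lower, by 0.15 at the higher dose (adjusted p = 0.0178) and by 0.13 at the lower one (adjusted p = 0.0251). Rpl4 (-0.01 and -0.05) and Rpl29 (-0.22 and 0.32) were likewise not called at either dose. Rplp1, Rpl22 and Rps3a1 passed in none of these comparisons, although under the common median Rplp1 was called lower at both doses (-0.18 and -0.16). Rpl23 was lower at 30 mg/kg (-0.23, adjusted p = 0.0286) and at 3 mg/kg (-0.36, adjusted p = 0.000261) without having been called in epilepsy on its brightest probe. Another bright Rpl23 probe, detected on all 56 arrays, was higher in epilepsy by 0.26 (adjusted p = 0.000286 over probes) and differed by -0.14 and -0.12 at the 2 doses, both called. Rpl3l was lower at 30 mg/kg by 0.09 (adjusted p = 0.00769) and differed by -0.03 at 3 mg/kg (adjusted p = 0.47).

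The doses were then compared directly. At 30 against 3 mg/kg 0 of the 55 genes were called in either direction, where 0.92% of all genes were higher and 1.25% lower. At an unadjusted p under 0.05, 5 members were higher and 1 lower. The median difference was 0.05, and by sign alone 42 genes had a positive and 13 a negative difference. With the 8 consecutive submitter numbers as a block the median was -0.004, so that the side of 0 was not fixed. Leaving out Rpl29, whose interval ran from -1.17 to 0.08, the 95% intervals of single genes reached no lower than -0.19 and no higher than 0.57. A group of 9 genes was called lower at 3 mg/kg and not at 30 mg/kg, namely Rpl24, Rpl27, Rpl28, Rpl35a, Rpl37, Rpl37a, Rpl39, Rpl5 and Rps21. Their direct differences between doses ran from 0.02 to 0.26 with adjusted p between 0.221 and 0.816, and so a difference between doses was not shown. With either block in the model 8 of the 9, all but Rpl37, were called lower at 30 mg/kg as well. Rpl39, which lines the exit tunnel, measured 11.20, 11.90 and 12.28 at 30 mg/kg and 10.94, 11.60 and 12.13 at 3 mg/kg, a difference of 0.25 with an interval of 0.04 to 0.47 (adjusted p = 0.221). The second block held 13 of the 15 mice at 30 mg/kg and 10 of the 18 at 3 mg/kg, and the Rpl39 mean was higher in it in every group. Within the blocks its difference between doses was -0.001 and 0.11, and with the block in the model 0.09, with an interval of -0.05 to 0.23.

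Small-subunit and large-subunit genes had medians of the same sign in each comparison with epileptic vehicle. In epileptic vehicle against naive mice, 20 of 22 small-subunit genes and 29 of 33 large-subunit genes were higher, with medians of 0.56 and 0.49. At 30 mg/kg, 19 of 22 small-subunit genes and 20 of 33 large-subunit genes were lower, with medians of -0.27 and -0.17. At 3 mg/kg the counts were 20 of 22 and 27 of 33, with medians of -0.31 and -0.25. These counts and medians are without blocks of array numbers in the model. Of the genes called lower at 3 mg/kg and not at 30 mg/kg, all but Rps21 were of the large subunit. With either block in the model all of them but Rpl37 were called lower at 30 mg/kg, so the gap between subunits at that dose was not fixed. Each gene was then centred on its mean over all mice and averaged in each mouse. The small-subunit average was -0.03 ± 0.15 at 30 mg/kg, -0.08 ± 0.08 at 3 mg/kg, 0.22 ± 0.07 in epileptic vehicle mice and -0.31 ± 0.03 in naive mice (SD, n = 15, 18, 17 and 6). The large-subunit average was -0.01 ± 0.12 at 30 mg/kg, -0.06 ± 0.10 at the lower dose, 0.18 ± 0.10 in epileptic vehicle mice and -0.29 ± 0.10 in naive mice. The small minus large difference averaged -0.02 ± 0.07 at 30 mg/kg, -0.02 ± 0.08 at 3 mg/kg, 0.04 ± 0.05 in epileptic vehicle mice and -0.02 ± 0.07 in naive mice. Its shift between groups was not tested, and the SD of single mice does not measure such a shift. These averages do not take the blocks of array numbers into account. The first block held 11 of the 17 epileptic vehicle mice and 2 of the 15 mice at 30 mg/kg.

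**Figure D3:**
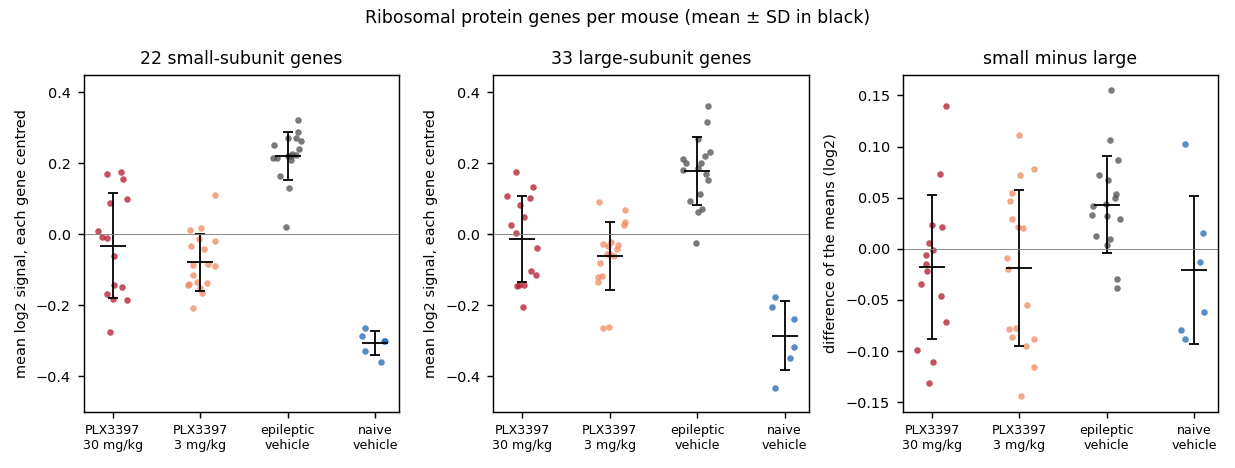
Average log2 signal of the small-subunit and large-subunit genes in each mouse (y axis, each gene centred on its mean over 56 mice) and the difference of both averages, by group, with the mean ± SD in black. All 17 epileptic vehicle mice lie above the highest naive mouse in the small-subunit average and in the large-subunit average, and the small minus large difference overlaps between all groups.

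Over all 55 genes the average of a mouse was -0.20, 0.00 and 0.17 at 30 mg/kg, -0.24, -0.06 and 0.06 with 3 mg/kg, -0.01, 0.20 and 0.35 in epileptic vehicle mice and -0.39, -0.29 and -0.21 in naive mice. All 15 mice at 30 mg/kg and all 18 at 3 mg/kg lay below the median epileptic vehicle mouse. The lowest epileptic vehicle mouse lay above 6 of the 15 mice at 30 mg/kg and 15 of the 18 at 3 mg/kg. That mouse was replicate 6, whose array was least like the others. Without it the lowest epileptic vehicle mouse stood at 0.09, above 12 of the 15 mice at 30 mg/kg and all 18 at 3 mg/kg. The spread was widest at 30 mg/kg (SD 0.13, against 0.08 at 3 mg/kg, 0.08 in epileptic vehicle mice and 0.07 in naive mice).

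Groups were spread unevenly over the array numbers. Within sets of 8 consecutive numbers that held both groups, the average over the 55 genes was higher in epileptic vehicle mice in 4 of 4 sets with naive mice (0.44 to 0.58). It was lower than in epileptic vehicle mice in 6 of 6 sets at 30 mg/kg (-0.40 to -0.13) and in 6 of 6 sets at 3 mg/kg (-0.38 to -0.18). For 30 against 3 mg/kg it was positive in 1 set and negative in 4. Within the first and the second block of numbers the epilepsy difference was 0.51 and 0.50. The first block held 2 of the 15 mice at 30 mg/kg and 11 of the 17 epileptic vehicle mice. The median raw signal of an array, which ran from 119 to 151 at 30 mg/kg, 110 to 142 at 3 mg/kg, 109 to 138 in epileptic vehicle mice and 120 to 150 in naive mice, moved with the groups. With it as a covariate 46 ribosomal genes were called higher in epilepsy and 36 and 47 lower at 30 and 3 mg/kg. Over all genes the same model called 2082 higher in epilepsy, and 1243 and 1618 lower at 30 and 3 mg/kg.

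Paralogs with their own probes were set beside their parents. Rps27l and its parent Rps27 were both higher in epileptic vehicle mice (0.97 and 0.64) and both lower at 30 mg/kg (-0.50 and -0.27) and 3 mg/kg (-0.62 and -0.44). Rpl3l passed only at 30 mg/kg and Rpl3 only in epilepsy, as given above, and no test of the difference between them was made. Rpl7l1, which unlike Rpl7 is known mainly as an assembly factor, was higher by 0.39 in epileptic vehicle mice, lower by 0.17 at 30 mg/kg and also lower, by 0.18, at 3 mg/kg. With arrays scaled to a common median both falls of Rpl7l1 were smaller and not called (-0.10 and -0.06). A dimmer Rpl7l1 probe, detected on all 56 arrays at a mean of 7.24, was called in none of these comparisons. It gave 0.04 for epilepsy, -0.004 at 30 mg/kg and -0.02 at 3 mg/kg. Rpl22l1 and Rpl39l did not pass the detection filter. Nor did Rpl14, Rpl17, Rpl6, Rplp2 and Rps23, of which Rpl6 was detected on 1 array and the others on 0, and 21 further protein-coding genes of the RefSeq table, for which no probe was named, were not analysed here. Short genes with many processed pseudogenes can share sequence with their probes: 309 pseudogenes in the same table were named after a fitting symbol, and probe sequences were not used here.

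For 11 members more than 1 probe was detected. All probes of a gene agreed in sign in 11 of 11 genes for epilepsy and for each dose against epileptic vehicle. The calls were the same for all probes in 7 of the 11 for epilepsy, 3 at 30 mg/kg and 6 at 3 mg/kg. Rpl38 shows the spread: the probe with the highest signal gave 0.11 and the dimmer one 0.46 in epileptic vehicle against naive mice. Members differed in signal from 7.00 for Rpl3l to 14.45 for Rplp1, with the next lowest for Rps3a1, Rpl21 (7.46) and Rplp0 (7.67) and the next highest for Rpl41 (14.39), Rpl38 (14.37) and Rpl9 (14.09), and signals of different probes do not rank the amounts of their mRNAs. The 27 members above the median signal had a median epilepsy difference of 0.43 and the 28 others 0.58. When all genes were cut into 5 equal bins by signal, the brightest bin held 47 members with a median epilepsy difference of 0.57, against -0.03 for the 1932 other genes in it. The bin of the shortest genomic spans held 49 members with a median of 0.54, against 0.05 for its 1930 other genes.

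Ribosomal proteins with other symbols behaved as follows. Fau, whose product is a ubiquitin-like protein fused to a small-subunit protein, was higher in epileptic vehicle mice by 0.70 and lower in treated mice, by 0.40 at 30 mg/kg and by 0.39 at the lower dose. Rpl36al was higher by 0.50 and lower by 0.17 and 0.29. Rpsa, the small-subunit protein also called the laminin receptor, differed by -0.04 in epilepsy, 0.06 with 30 mg/kg and 0.04 with 3 mg/kg, and was not called. Rack1 had no named probe.

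Other genes of the translation apparatus were counted from lists. Among 14 measured TOP-mRNA translation factors and partners, 6 were higher and 2 lower in epileptic vehicle against naive mice. At 30 mg/kg 1 was higher and 5 lower, and at 3 mg/kg 2 were higher and 6 lower. Without epileptic vehicle replicate 6 the higher counts were 2 and 3, and without 3 mg/kg replicate 18 they were 2 and 1. Those that moved like the ribosomal genes included Eef1b2 (0.67, -0.30 and -0.41 for epilepsy, 30 mg/kg and 3 mg/kg) and Eef1d (0.45, -0.25 and -0.18), exchange factors of elongation factor 1, and Btf3 (0.52, -0.24 and -0.28), a subunit of the nascent polypeptide-associated complex. Eef1g, of the same exchange complex, was not called in epilepsy (0.03). Mitochondrial ribosomal proteins were the list with the most similar counts: 52 of 68 were higher and 3 lower in epileptic vehicle mice (median 0.36), 36 were lower and 1 higher at 30 mg/kg (median -0.15), and 49 were lower and 3 higher at 3 mg/kg (median -0.24).

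In epileptic vehicle against naive mice, each of the lists that make or regulate ribosomes held genes called higher and genes called lower. Over all genes tested, 22.6% were higher and 26.5% lower. Of 31 measured ribosome assembly factors, 5 were higher and 9 lower in epileptic vehicle mice, with a median of 0.02. Nucleolin (Ncl), which binds pre-ribosomal RNA, was lower by 0.53, and Nhp2, of the box H/ACA particles, was higher by 0.58. Of 19 measured RNA polymerase I and III genes, 6 were higher and 5 lower (median -0.01). Ubtf, which activates ribosomal DNA, fell by 0.53 in epileptic vehicle mice, and Polr1a, the largest subunit of RNA polymerase I, fell by 0.47, while Polr1d was higher by 0.54 and Gtf3a, the factor for 5S RNA, by 0.64. Of 25 listed genes of the mTORC1 axis 14 were measured, and Larp1, Rptor, Tsc1 and Rps6kb1 were not among them. Of the 14, 1 (Eif4ebp1, 0.43) was higher and 4 were lower, among them Mtor (-0.54) and Tsc2 (-0.43). Of 11 genes of ribosome surveillance, 2 were higher and 6 lower, and Pelo, which rescues stalled ribosomes, differed by -0.44 in epileptic vehicle against naive mice and against epileptic vehicle by 0.41 at 30 mg/kg and by 0.38 at the lower dose.

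**Figure D4:**
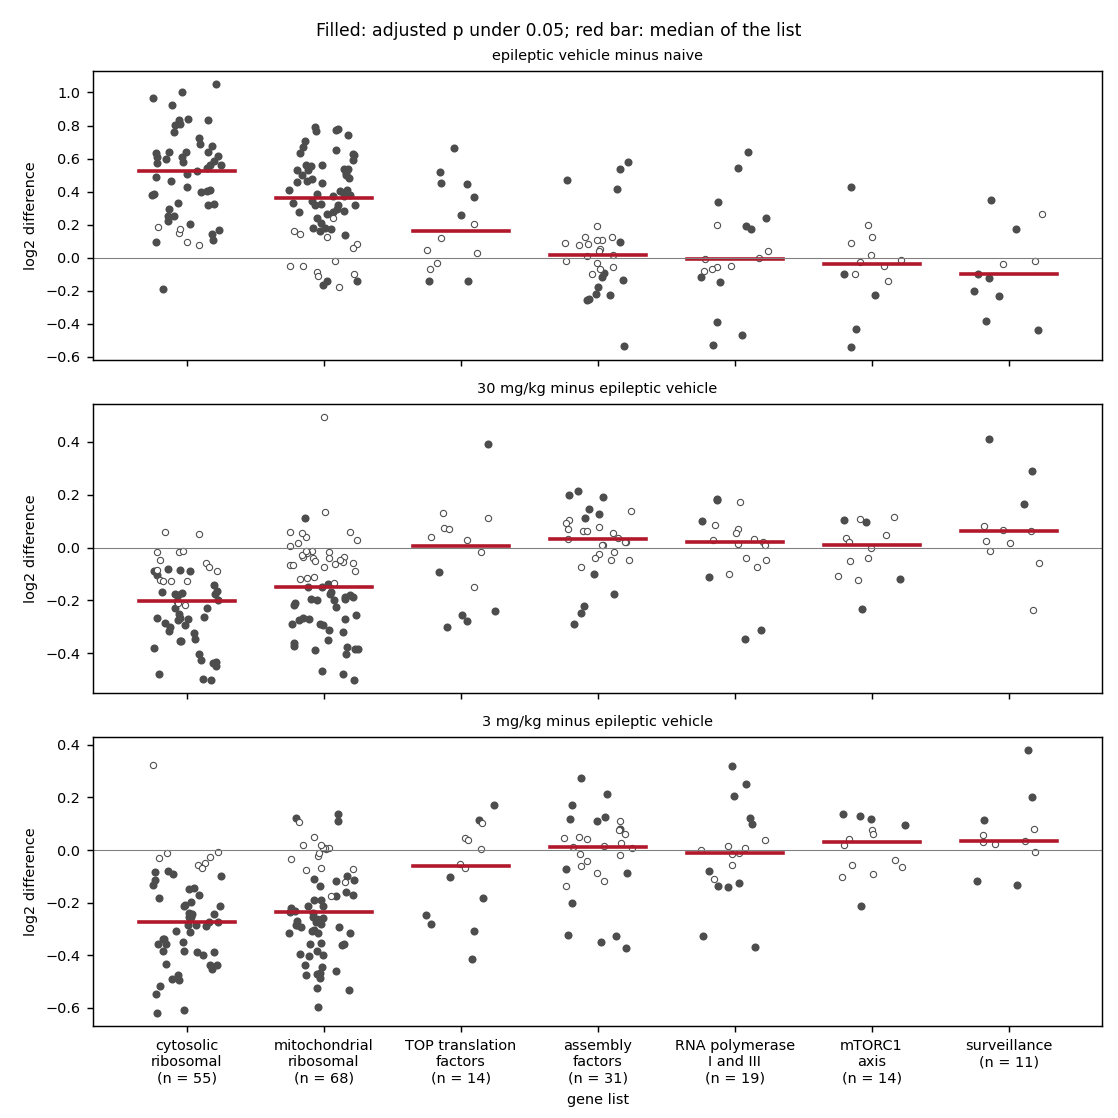
Log2 difference (y axis) of single genes of 7 lists (x axis) in epileptic vehicle minus naive mice, 30 mg/kg minus epileptic vehicle and 3 mg/kg minus epileptic vehicle, with the median as a red bar and genes past an adjusted p of 0.05 filled. Medians of cytosolic ribosomal genes were 0.53, -0.20 and -0.27 and those of mitochondrial ribosomal genes 0.36, -0.15 and -0.24, while assembly factors had medians of 0.02, 0.03 and 0.01.

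Ribosomal genes also varied together between mice of one group. After the group means were removed, the median Pearson correlation over 56 mice was 0.35 for the 1485 pairs of members, and 84.6% of pairs were positive, against a median of -0.00 over all pairs of genes tested. It was 0.43 within the small subunit, 0.34 within the large subunit and 0.34 between them. These correlations share arrays, normalization and any difference in RNA between mice. Rps3 (0.90), Rpl12 (0.88), Rps27 (0.88) and Rps12 (0.87) followed the mean of the other members most closely. Rpl29 (-0.26), Rpl22 (-0.09) and Rps26 (-0.02) did not follow it. When the block of array numbers was removed along with the group means, the median over pairs was 0.38 with 88.3% positive, and Rps26 correlated with the other members at 0.31, whereas Rpl29 (-0.28) and Rpl22 (-0.10) stayed below 0.

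Some of the structure among members went with the blocks of array numbers. Rpl5, Rpl39 and Rpl35a correlated with each other at 0.95 to 0.96, and Rps2, Rps4x and Rpl23a at 0.49 to 0.80, whereas the 9 correlations between these trios, chosen after their values were seen, were all negative (-0.48 to -0.29). With the block removed as well, the trios correlated within themselves at 0.86 to 0.90 and at 0.32 to 0.71, and the 9 correlations between them ran from -0.001 to 0.21, so the opposition of the trios was not seen once the block was removed. Rpl5, Rpl39 and Rpl35a are among the genes called lower at 3 mg/kg and not at 30 mg/kg. Outside the members, the genes whose residual values were most like the member mean were Nop10 (0.88), Hint1 (0.85), Timm8b (0.84), Uqcc2 (0.84), Chmp2a (0.83), Pigp (0.82), Dnajc19 (0.82), Sec61b (0.82), Bud31 (0.82) and Eef1b2 (0.82). All 10 were called higher in epilepsy. With the block removed 3 of the 10, Hint1, Timm8b and Nop10, were still among the 10 nearest.

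**Figure D5:**
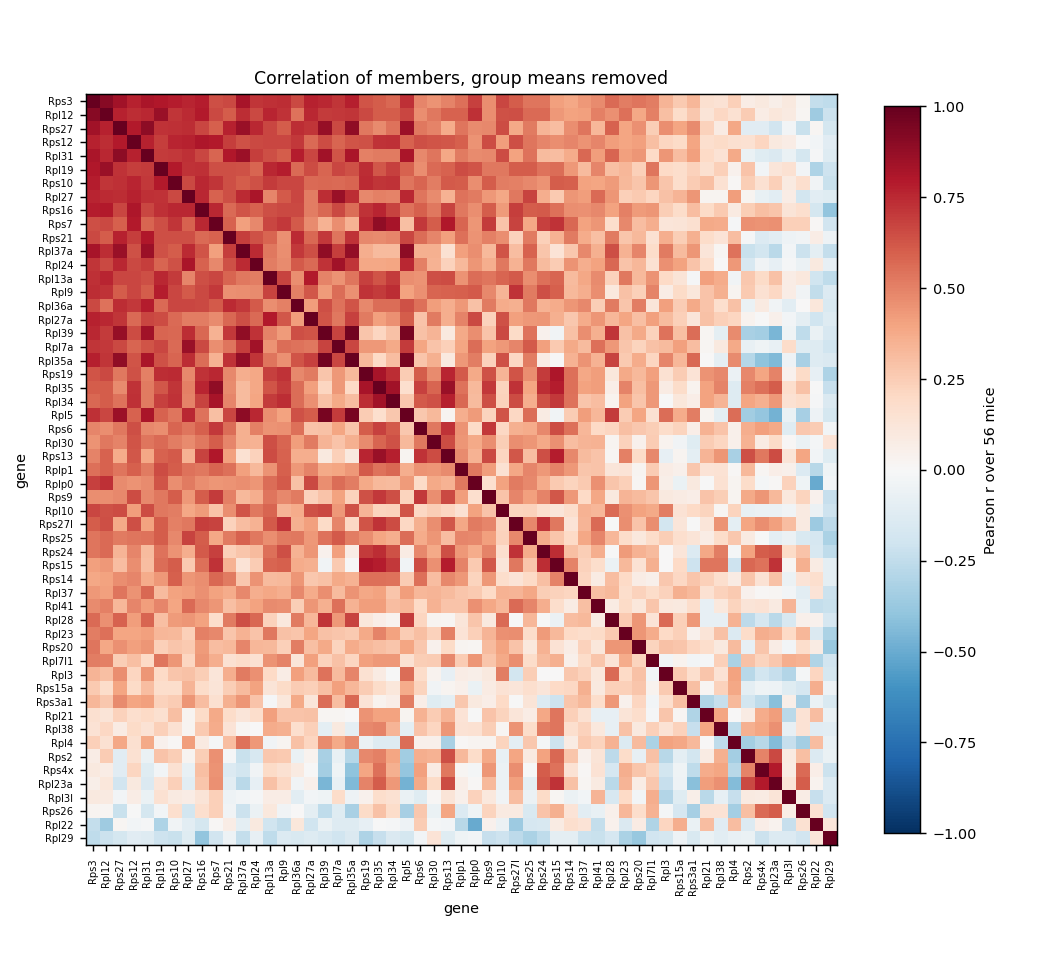
Pearson correlation over 56 mice (colour) between each pair of 55 members (both axes) after group means were removed, ordered by correlation with the mean of the other members. The upper left block holds Rps3, Rpl12 and Rps27, and Rpl22 and Rpl29 stand at the end with values mostly at or below 0.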

How the data were processed

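Groups and replicate numbers came from the sample labels. The authors deposited the raw intensity of each probe, exported from GenomeStudio 2011.1 with neither background nor normalization steps applied. The deposited detection p-value of each probe on each array is set against negative controls. They also deposited log2 values, quantile-normalised with lumi (version not given in the sources used here), whose columns matched those computed here with a correlation of at least 0.999991 and which served as an alternative. RNA had passed the submitters' integrity limit, and mice are separate animals.

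Intensities were taken to log2 and quantile-normalised over all 25697 probes. A probe was kept if its detection p was below 0.05 on 6 or more of 56 arrays (14058 probes). Probes were named through the platform annotation and RefSeq (23978 probes on the array with 1 gene and 1719 with none listed), and reduced to the brightest probe of each of 9893 genes. One limma model (limma 3.58.1, R 4.3.3) over the 4 groups gave the 4 comparisons, with Benjamini-Hochberg adjustment over all genes. Bead arrays give no counts, and the number of mice limits precision. The script was tested on simulated data. Members and gene lists were chosen with earlier results of these data known. Named genes were, for each comparison, up to 6 highest and 6 lowest called members, members called against the majority, paralogs ending in l, the 6 brightest and dimmest, undetected members, ribosomal proteins with other symbols, up to 4 genes of each list by p, and 10 non-members most correlated with the member mean. Where a count or list added others, they were chosen after their values were seen. The alternatives changed normalization, background correction, source of values, detection filter, probe choice, array weights, blocks, mice and threshold.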

Additional observations from a re-analysis of the deposited data

Results flagged for a closer look

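Among the 6 naive mice, the sample farthest from its group was checked for each of the 55 members and for their averages (58 checks with Dixon's test). In 2 of them a mouse stood apart, and chance alone marks about 1 in 20 groups. Rpl29 was 10.92 in naive replicate 5, where the other naive mice lay between 8.77 and 8.82. Rplp0 was 7.25 in naive replicate 3, where the other naive mice lay between 7.45 and 7.54.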

How the results depend on the processing

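Directions of the medians in epilepsy and at each dose held in all 16 alternatives run for every comparison: 0.44 to 0.57 for epileptic vehicle against naive mice, -0.25 to -0.17 at 30 mg/kg and -0.28 to -0.24 at 3 mg/kg. The median of 30 against 3 mg/kg ran from -0.004 to 0.06. Leaving out each naive mouse gave 0.50 to 0.54 and 47 to 49 members higher in epilepsy. Over the other alternatives the called counts ran from 45 to 51 higher in epilepsy, from 33 to 48 lower at 30 mg/kg and from 44 to 49 lower at 3 mg/kg. The whole-table calls moved as well. With arrays scaled to a common median 1291 genes were higher in epilepsy, and 818 and 768 lower at 30 and 3 mg/kg. With sets of 8 as a block these counts were 2340, 1523 and 1608. The 1 member called lower in epilepsy, Rps15a, was 0 at an adjusted p under 0.01 and ran from 0 to 1 when each naive mouse was left out, with 0 without replicate 5. Of 51 results for named genes, 35 neither lost a call nor changed sign. Arrays scaled to a common median turned Rpl4 in epilepsy to -0.0532 (adjusted p = 0.556) and Rpl7l1 at 30 against 3 mg/kg to -0.0347 (adjusted p = 0.789), and sets of 8 submitter numbers as a block turned Rps27 at 30 against 3 mg/kg to -0.00609 (adjusted p = 0.988). The cause was not tested. Rpl29 in epilepsy ranged from 0.74 to 1.36 and Rpl38, Rpl21 and Rps14 each lost a call in 5 or more alternatives. Arrays scaled to a common median also gained the calls of Rpl3 at both doses. Of 84 gene-list counts repeated without the arrays least like the others, 14 changed, by at most 2. Leaving out these arrays, the array median as a covariate, and correlations with the block of array numbers removed were added after the data were seen.

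Replicate numbers did not pair the mice: same-numbered mice correlated from -0.18 to 0.24 in epilepsy and 3 of 6 pairs exceeded 0.1. With the replicate block 49 members were higher in epilepsy (median 0.48), 37 lower at 30 mg/kg and 47 lower at 3 mg/kg. Over all genes the counts in that model were 2288 higher in epilepsy, 1597 lower at 30 mg/kg and 1662 lower at 3 mg/kg.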
